A study of Saccharomyces cerevisiae with 21 samples.

Results

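The genes described here encode the subunits of the proteasome of the budding yeast Saccharomyces cerevisiae, together with RPN4, the gene of the transcription factor that drives them. Members were all loci whose symbol is RPN, RPT, PRE or PUP followed by digits alone, plus SCL1. This gave 34 of the 7126 loci in the table: 32 subunit genes, RPN4, and RPN14, whose product is an assembly chaperone and not a subunit. By subcomplex the subunits were 7 of the alpha ring, 7 of the beta ring, 10 of the base and 8 of the lid.

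RNA was measured in 21 libraries, 1 for each 10 min from 0 to 200 min, with 1 library per time point and therefore no replicates. All came from 1 time course of a single strain of the BF264-15D background, mating type MATa, with bar1::hphMX4 and arg4. Its B-type cyclin genes, 6 in all, were disrupted as clb1::URA3 with clb2::LEU2, then clb3::TRP1 and clb4::HIS2, and lastly clb5::ARG4 and clb6::ADE1. The strain also carried PGAL1-CLB1::LEU2, a CLB1 copy under the galactose-inducible GAL1 promoter, and all 21 libraries share these alleles. Cells grown in YEPGalactose at 30 °C were arrested in G1 by alpha-factor (30 ng/ml, 160 min) and released into YEPDextrose at 30 °C, so the loss of pheromone, the change of sugar and the shut-off of PGAL1-CLB1 cannot be told apart in time. Levels are in FPKM, a fragment count divided by transcript length and by the size of the library, so they can be compared between genes. No wild-type library was used. In bulk RNA, a lower value from fewer cells expressing a gene and one from less RNA per cell cannot be told apart.

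The labelled mating type was checked first. The MATa genes STE2 (157 to 2069 FPKM), MFA1 (640 to 34816), MFA2 (1329 to 41687) and AGA2 (439 to 8547) were present in every library and highest at 0 min. Of the alpha-cell genes, STE3 (4.58 to 11.9 FPKM), MF(ALPHA)1 (0.154 to 1.14) and MF(ALPHA)2 (0.468 to 20.6) were low, while SAG1 ranged from 41.5 to 72.1 FPKM. BAR1, disrupted in the strain, ranged from 1.34 to 3.18 FPKM. CLB4 was listed at 0 in all 21 libraries. The other disrupted cyclin genes still gave FPKM: CLB1 90.4 to 293, CLB2 38.1 to 93.3, CLB3 20.1 to 32.2, CLB5 22.2 to 80.4 and CLB6 1.84 to 160. The CLB1 values do not tell the disrupted locus from the PGAL1-CLB1 copy. Where in each gene these fragments lay was not analysed here. Summed over all loci, a library held between 1212671 FPKM (180 min) and 1911174 FPKM (0 min). Read depth is not known from these values.

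The proteasome is the protease that destroys proteins tagged with ubiquitin. Its barrel-shaped core is built of alpha rings, which gate the entrance, around beta rings, which carry the cutting sites. A cap sits on the core: its base holds the ATPases that unfold the substrate and the receptors that bind ubiquitin, and its lid removes the ubiquitin chain. In S. cerevisiae the subunit genes share a promoter motif, the proteasome-associated control element (PACE), which is bound by Rpn4. The Rpn4 protein is itself short-lived and destroyed by the proteasome, which gives a feedback loop. In the cell cycle the proteasome acts on cyclins, securin and other regulators.

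The shared promoter letters are shown for genes that the values below turn on, 2 from each ring, the base and the lid, followed by the genes that hold only a shortened form. Promoters were the 250 bases before and 50 bases after each annotated gene start in the RefSeq genome of build R64, the build named in the submitters' processing notes. That reference is a different strain from BF264-15D, whose own sequence was not analysed here. Each line reads 5′ to 3′ on the gene's strand, with capitals marking the 9 letters GGTGGCAAA or their reverse complement.
SCL1 (chrVII:475336-475365, minus strand): cacacaccaaTTTGCCACCgtaaggataga
PRE9 (chrVII:761223-761252, plus strand): ttaccctgcaGGTGGCAAAaaatttataga
PUP3 (chrV:349510-349539, minus strand): tggcactgccGGTGGCAAAaaagtgcaaat
PRE1 (chrV:177683-177712, plus strand): aaatctttacGGTGGCAAAaaataaagaaa
RPT2 (chrIV:437906-437935, plus strand): gtttttctccGGTGGCAAAtgtctcttttc
RPN1 (chrVIII:164837-164866, minus strand): tgtgttttacGGTGGCAAAaggcgagcacg
RPN9 (chrIV:1322086-1322115, plus strand): gctttcatccGGTGGCAAAagtaagaacaa
RPN12 (chrVI:252398-252427, plus strand): ctacacattaTTTGCCACCcattgaaattg

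In 3 further subunit genes the window held GTGGCAAA, the same motif without its first letter, and the capitals below mark those 8 letters.
PRE5 (chrXIII:901553-901581, plus strand): ctattatagaGTGGCAAAattaaaaattc
PUP1 (chrXV:631890-631918, minus strand): acccggccgaGTGGCAAAataccaaaaag
RPN8 (chrXV:817084-817112, minus strand): ggatacctcaGTGGCAAAtcgttactcaa

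GGTGGCAAA was searched on both strands and found in 27 of the 32 subunit promoters, or 84.4%, against 72 of 6001 promoters of the same length across the genome, or 1.2%. Every one of the 27 held a single match. The matches began between 84 and 183 bases upstream of the gene start, with a median of 120 bases, and 19 lay on the gene's strand and 8 on the other. The shorter GTGGCAAA, which overlaps it, was found in 30 of 32 subunit promoters and in 144 of 6001 promoters, or 2.4%. By subcomplex, the longer motif was present in 6 of 7 alpha ring genes (not PRE5), 6 of 7 beta ring genes (not PUP1), 8 of 10 base genes (not RPN10 or RPN13) and 7 of 8 lid genes (not RPN8). RPN10 and RPN13, the ubiquitin receptor genes, had neither exact form in this window, and neither had RPN14 or RPN4. The RPN10 and RPN13 windows do hold GGTGGCGAA, with a G in place of an A, on the gene's strand in RPN13 and on the other in RPN10. Only exact letters were searched, so the share of all promoters that hold this variant was not counted. A match describes letters and is not a measured binding site.

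**Figure D1:**
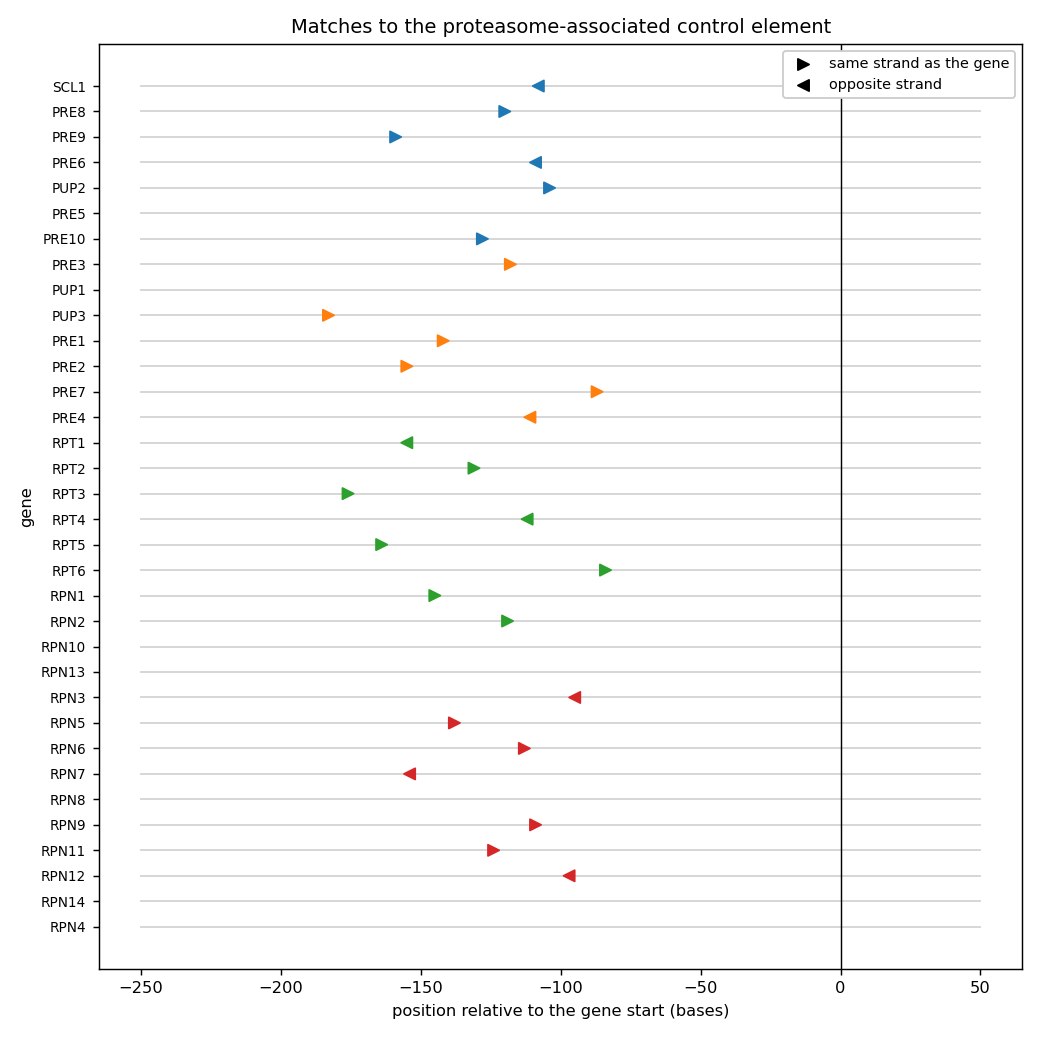
Position of each GGTGGCAAA match (triangles, pointing by strand) in the 34 windows of 300 bases, with the gene start at 0 on the x axis in bases and 1 grey line per gene; blue marks the alpha ring, orange the beta ring, green the base and red the lid. The 27 matches sit between 84 and 183 bases upstream of the start, and 7 lines are empty.

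The RPN4 window was also searched, on both strands, for motifs of factors known to act on RPN4 in S. cerevisiae. The Yap1 motif TTAGTAA (in 7.45% of all promoters) and the Pdr1 and Pdr3 motif TCCGCGGA (in 0.217%) were not among these letters. Letters more than 250 bases before the gene start were not searched, so the search cannot show whether RPN4 has such motifs farther upstream. GAANNTTC, a part of the heat shock element, was present in the RPN4 window, in the RPN14 window and in 11.8% of all promoters.

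Subunit genes differed several-fold in level, although their proteins are parts of the same complex. Averaged over 21 libraries, subunits ranged from 75.9 FPKM (RPN10) to 449 FPKM (PRE9), a ratio of 5.91, with a median of 245 FPKM. The medians were 260 FPKM for the alpha ring, 280 for the beta ring, 184 for the base and 254 for the lid. RPN4 averaged 208 FPKM, within the range of the subunits. RPN14 averaged 22.7 FPKM, below every subunit gene. All 34 members passed the minimum mean of 1 FPKM, and no member overlaps another annotated gene. PRE3 has 2 coding exons and the other 33 have 1.

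Subunit RNA was lowest 30 min after release and then climbed to a plateau. The median subunit had 137 FPKM at 30 min and 297 FPKM at 120 min. The 32 subunit genes together made up 0.296% of all FPKM at 30 min and 0.744% at 180 min. These shares also move with the sum over all loci, 1700219 FPKM at 30 min and 1212671 FPKM, the lowest, at 180 min. The lowest library was 30 min for 20 of the 32 subunits, while 10 were highest at 190 min and 9 at 120 min. All 34 members changed over the course by limma's test of a spline against a flat line (Benjamini-Hochberg adjusted over 6198 loci), where 82.7% of all loci were called, a share close to that of the members. A fitted change of at least 1 on the log2 scale was called in 22 of 34 members, against 44.8% of all loci. The median fitted range was 1.05 for members and 0.99 for all loci. Among the called were 5 of 7 alpha ring genes, 6 of 7 beta ring genes, 6 of 10 base genes and 3 of 8 lid genes. As given below, this order did not hold once a dependence of the values on GC content was removed. Libraries of neighbouring times from 1 culture are not independent samples, so these and all later p-values are too small as evidence about other cultures. With a stiffer spline of 4 degrees of freedom 13 members were called, a setting for which the share of all loci is not given.

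**Figure D2:**
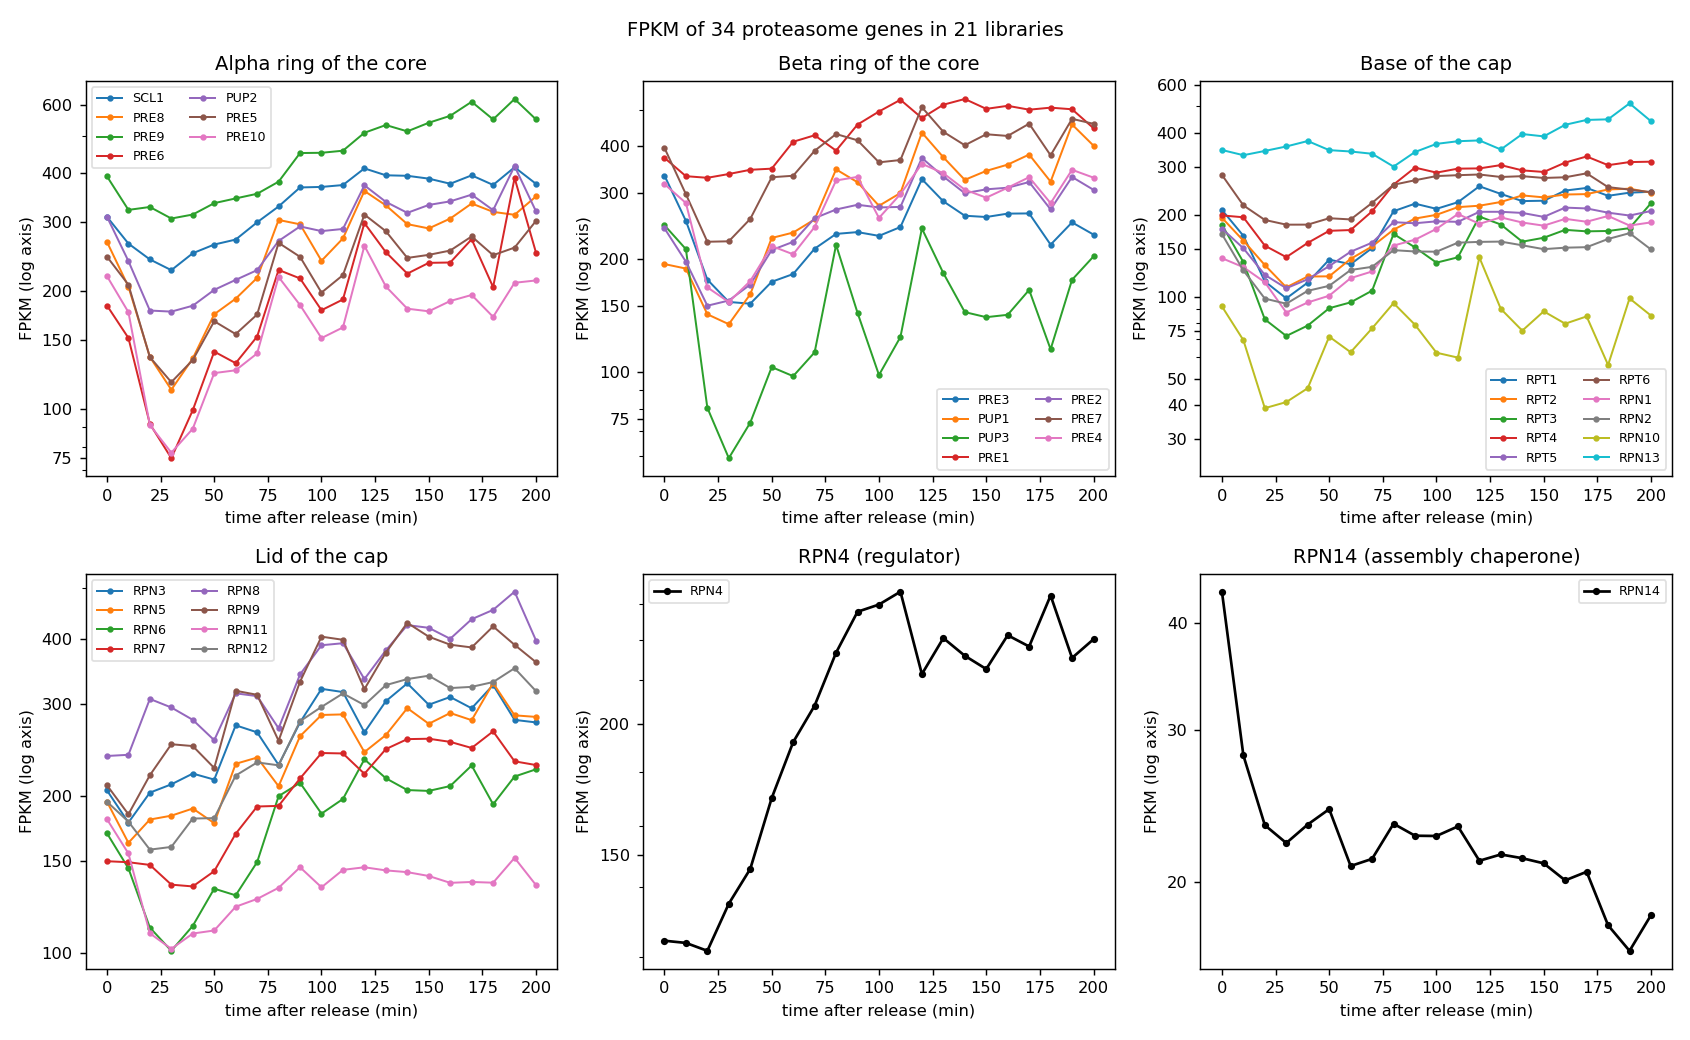
FPKM (log axis) of each member against time after release in min, 1 point per library, in 4 panels for the subcomplexes and 1 each for RPN4 and RPN14. Most subunit lines dip between 20 and 40 min and flatten after 120 min, RPN4 has 122 FPKM at 20 min and 267 FPKM at 110 min, and RPN14 is highest at 0 min, with 43.5 FPKM.

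The clearest change was between the first and the second part of the course. Comparing the 10 libraries of 110 to 200 min with the 10 of 10 to 100 min asks whether levels differed between the later and the earlier part of the course after release. The 0 min library is in neither window, so the comparison does not give the change from the arrest. All 32 subunit genes and RPN4 were higher late by limma's test with Benjamini-Hochberg adjustment, 33 of 34 members against 25.9% of all loci. RPN14 was the only member called lower, a direction called in 22.7% of all loci. The median log2 difference was 0.53 over the members and 0.04 over all loci. The late libraries lay wholly above the early ones in 7 of 34 members, or 20.6%, against 2.32% of 6194 loci: SCL1, PRE9, RPT1, RPT2, RPN1, RPN2 and RPN12. Leaving out 1 library at a time, PUP3 lost its call in 11 of 20 cases and RPN10 in 12 of 20, and no other member lost it. Set beside the single 0 min library without a test, the mean of 160 to 200 min differed less. The median log2 difference over the 32 subunits was 0.32, from -0.64 (PUP3) to 0.97 (PUP1). It was above 0 in 25 subunits and below 0 in 7, and the matching shares of all loci are not given.

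In the alpha ring all 7 genes rose, by 0.45 to 0.85 (log2). PRE9, the alpha subunit gene that yeast can live without, had 307, 341 and 452 FPKM as its lowest, median and highest early value and 457, 545 and 620 FPKM late. Its windows did not overlap, and the log2 difference was 0.61 (SE 0.08, adjusted p = 7.53e-06). SCL1 went from 226, 268 and 370 FPKM to 374, 391 and 415 FPKM, also without overlap (0.45, SE 0.08, adjusted p = 0.00016). PRE6 had the largest difference of the members, 0.85 (SE 0.18, adjusted p = 0.000581). Its early values of 74.9, 146 and 227 FPKM overlapped the late values of 191, 244 and 390 FPKM, and the 390 FPKM belonged to 190 min alone.

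In the beta ring all 7 genes rose, by 0.39 to 0.74. PUP1, which carries the trypsin-like site, had 134, 232 and 347 FPKM early and 300.2, 365 and 457 FPKM late (0.74, SE 0.15, adjusted p = 0.000546). PRE3, of the caspase-like site, went from 152, 198 and 253 FPKM to 219, 260 and 327 FPKM (0.39, SE 0.10, adjusted p = 0.00236). PRE2, of the chymotrypsin-like site, went from 151, 217 and 279 FPKM to 272, 309 and 372 FPKM (0.54, SE 0.11, adjusted p = 0.000547). All 3 genes of the cutting sites were thus higher late than early, with windows that overlapped. At 0 min, outside both windows, PRE3 had 334 FPKM, above all its late values. PUP1 had 194 FPKM and PRE2 had 242 FPKM there, below all of theirs. PUP3, a beta subunit with no cutting site, had the largest SE of the members as deposited: 59.2, 101 and 219 FPKM early against 115, 155 and 242 FPKM late (0.53, SE 0.21, adjusted p = 0.0389).

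In the base all 10 genes rose, by 0.27 to 0.71. The 6 ATPase genes rose by 0.31 (RPT6) to 0.71 (RPT3). RPT2, whose product helps open the gate of the core, had 108, 146 and 200.2 FPKM early and 214, 237 and 250 FPKM late, with no overlap (0.66, SE 0.10, adjusted p = 2.62e-05). RPN1, a scaffold that docks ubiquitin shuttles, had 87.6, 121 and 178 FPKM early and 183, 188 and 202 FPKM late (0.62, SE 0.10, adjusted p = 8.00e-05). The ubiquitin receptor genes were the least alike of the base. RPN13 was already at 301, 343 and 373 FPKM early and reached 348, 412 and 513 FPKM (0.27, SE 0.06, adjusted p = 0.00165). RPN10, the subunit gene of the lowest level, had 39.1, 66.0 and 94.9 FPKM early and 56.3, 85.1 and 140 FPKM late (0.42, SE 0.17, adjusted p = 0.0408).

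In the lid all 8 genes rose, by 0.19 to 0.65. RPN12, the last lid subunit to join, had 158, 200 and 296 FPKM early and 298, 324 and 351 FPKM late, without overlap (0.65, SE 0.10, adjusted p = 3.63e-05). RPN9 went from 184, 253 and 403 FPKM to 320, 389 and 429 FPKM (0.52, SE 0.11, adjusted p = 0.000573). RPN11, the enzyme that cuts off the ubiquitin chain, changed least: 102, 125 and 155 FPKM early and 135, 141 and 152 FPKM late (0.19, SE 0.07, adjusted p = 0.0246). Its highest value of all, 180 FPKM, was at 0 min, outside both windows.

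RPN4 had 122, 181 and 260 FPKM early and 223, 239 and 267 FPKM late (0.43, SE 0.13, adjusted p = 0.00942). RPN14 went the other way, from 20.9, 22.9 and 28.0 FPKM to 16.6, 20.8 and 23.2 FPKM (-0.20, SE 0.06, adjusted p = 0.0121), but with libraries scaled to 1 common sum its difference was 0.01 (adjusted p = 0.941). That scaling moved the median of all loci by -0.30 at 0 min to 0.34 at 180 min, and it left all 33 rises called.

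**Figure D3:**
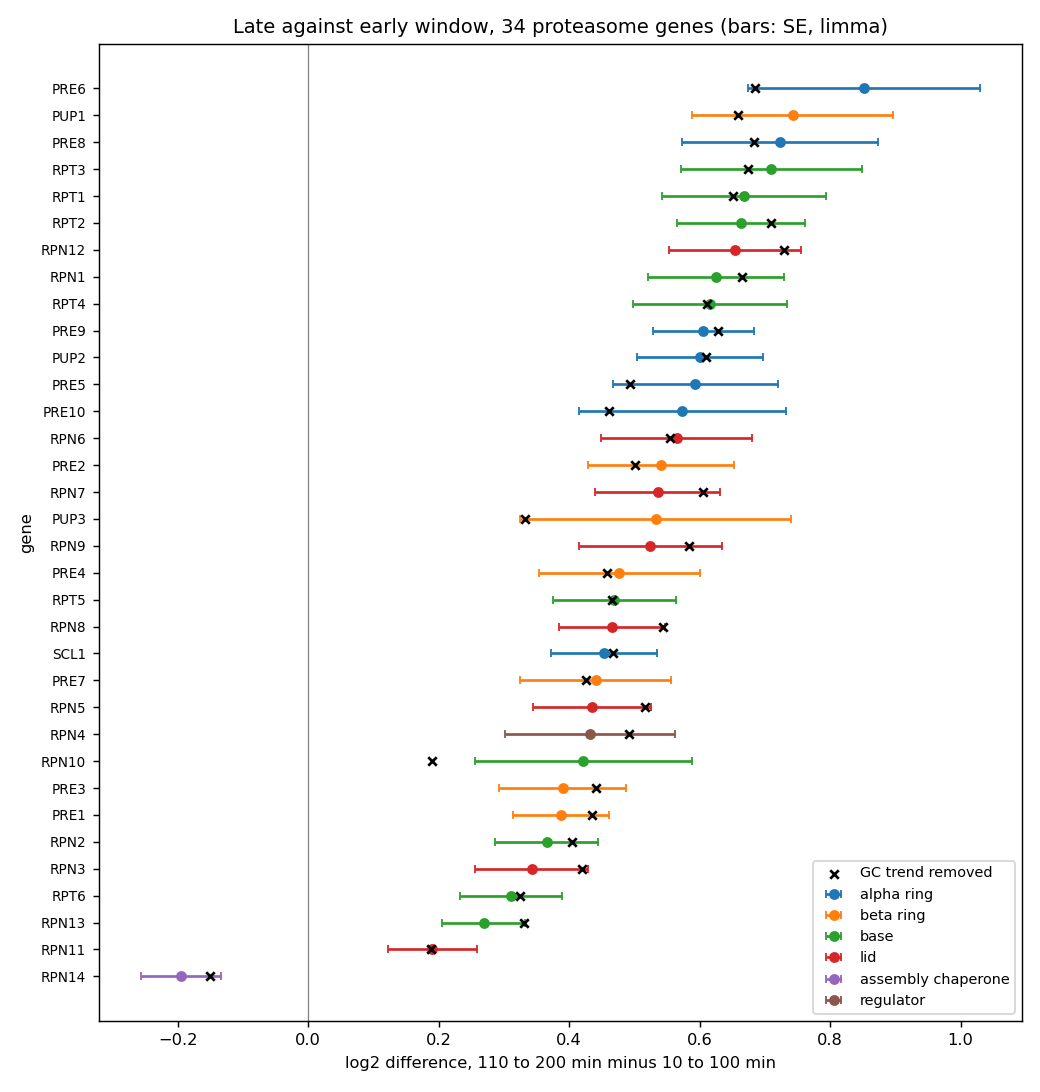
Log2 difference of 110 to 200 min minus 10 to 100 min (10 libraries each) for the 34 members, with bars of 1 SE from limma and colours for the subcomplex; black crosses give the same difference after the GC trend of each library was removed. Every subunit and RPN4 lie right of 0, from RPN11 at 0.19 to PRE6 at 0.85, and RPN14 lies left of it at -0.20.

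Most of the rise took place between the first and the second block of 5 libraries. From 10 to 50 min to 60 to 100 min, 27 of 34 members rose (13.6% of all loci did) and none fell (12.8% of all loci), nor did any fall at an unadjusted p under 0.05. RPN4 rose by 0.72 (SE 0.10, adjusted p = 0.000101), from 124, 122, 135, 146 and 170 FPKM to 192, 208, 234, 255 and 260 FPKM, with every later value above every earlier one. Among subunits the largest rises were PUP1 at 0.76, PRE8 at 0.72 and PRE6 at 0.71. The members that did not pass were PRE3 (0.29), PUP3 (0.43), RPN10 (0.51), RPN13 (-0.06), RPN8 (0.23), RPN11 (0.19) and RPN14 (-0.12). Leaving out 1 library at a time gave 23 to 31 rises.

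The next step was smaller and less certain. From 60 to 100 min to 110 to 150 min, 8 members rose (7.06% of all loci) and none fell (6.88% of all loci): SCL1, PRE9, PUP2, PRE1, RPT2, RPN1, RPN7 and RPN12, by 0.24 (PRE1) to 0.39 (RPT2). At an unadjusted p under 0.05 the limma count was 23 higher and 0 lower. The share of all loci at an unadjusted p is not given, here or for the other steps, so the shares above do not apply to it. RPN4 differed by 0.06 (SE 0.10, adjusted p = 0.75). The count fell to 2 without the 60 min or the 70 min library and reached 14 without the 10 min library.

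No member passed the test between 110 to 150 min and 160 to 200 min (0.113% of all loci were higher and 0.0161% lower by limma). At an unadjusted p under 0.05, PRE9 (0.18) and RPN13 (0.27) were higher and RPN14 (-0.21) was lower. RPN4 differed by 0.03 (SE 0.10). Subunit differences ran from -0.16 (PRE3) to 0.27 (RPN13), and the median over the members was 0.02.

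The drop just after release was not alike in the subcomplexes as deposited. There is 1 library at 0 min, so the mean log2 value of 20 to 40 min was set beside it without a test. At least a 2-fold lower value was found in 7 of 34 members, a share close to the 18.8% of all loci, and a 2-fold higher one in none (10.8%). The median difference was -0.64 over the members and -0.09 over all loci. PUP3 had 246 FPKM at 0 min and 80.5, 59.2 and 73.5 FPKM at 20, 30 and 40 min. RPT3 had 184 FPKM at 0 min and 82.8, 71.9 and 78.5 FPKM after. The lid genes RPN8 (238 FPKM, then 306, 295 and 279) and RPN9 (209 FPKM, then 219, 251 and 249) were higher after release. The mean log2 difference was -0.84 for the alpha ring, -0.81 for the beta ring, -0.68 for the base and -0.16 for the lid. RPN4 was at 124 FPKM at 0 min and 122, 135 and 146 FPKM after. RPN14 was at 43.5 FPKM and then 23.3, 22.2 and 23.3 FPKM.

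Those differences between subunits moved with the GC content of the genes. Subunit genes ran from 33.7% GC (RPN9) to 47.5% (RPN10), with a lid median of 37.1% and an alpha ring median of 42.2%. Across the 32 subunits, the difference of 20 to 40 min from 0 min had a Pearson r of -0.82 with GC content, given as a description. Single libraries moved with GC content as well. The value at 120 min, set against the mean of 110 and 130 min, had r = 0.91 with GC content, from -0.27 for RPN9 to 0.91 for RPN10. At 80 min the r was 0.88, and PUP3, at 219 FPKM between 113 and 144 FPKM, stood highest (0.77). The dependence was not particular to the proteasome: over 5731 genes, the deviation from each gene's own mean had r = 0.60 with GC content for the 120 min library, 0.53 for that of 80 min and -0.50 for that of 30 min. The source of this dependence was not tested.

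As an alternative chosen after the data had been seen, a cubic curve of GC content over all genes was subtracted within each library, which also removes any real change that follows GC content. The drop from 0 min to 20 to 40 min was then -0.45 for the alpha ring, -0.52 for the beta ring, -0.54 for the base and -0.53 for the lid, and 31 of 32 subunits were lower, all but PUP1. The median over all loci was also below 0, at -0.16, beside -0.53 over the members, and the share of all loci that were lower is not given. At least 2-fold lower values were then found in 2 members (15.6% of all loci): PRE3 (-1.24), which was also past 2-fold as deposited, and RPN14 (-1.04), which was not (-0.89). No member was 2-fold higher (7.68% of all loci). The r with GC content went to 0.25 for this drop, 0.40 for the 120 min step and 0.09 for the 80 min step. RPN4 differed by -0.17, where the deposited values gave 0.10.

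**Figure D4:**
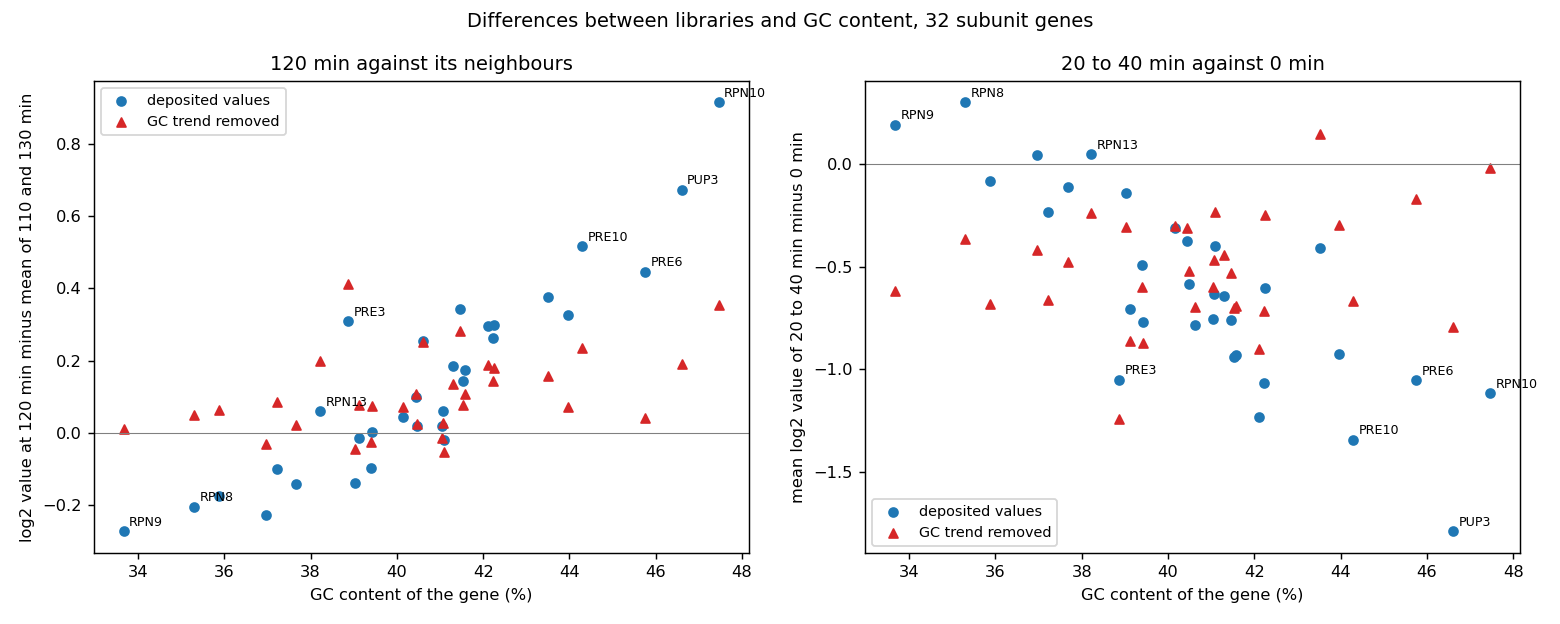
For each of the 32 subunit genes, GC content (%) against the log2 value at 120 min minus the mean of 110 and 130 min (left) and against the mean of 20 to 40 min minus 0 min (right); circles are deposited values and triangles have the GC trend of the library removed, with selected circles named. The circles slope up on the left (r = 0.91) and down on the right (r = -0.82), and the triangles lie flatter (r = 0.40 and 0.25).

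With the GC trend removed, all 34 members changed over the course (88.4% of all loci) and 15 by at least 1 on the log2 scale (37.5% of all loci). Among these were 2 of 7 alpha ring genes, 2 of 7 beta ring genes, 5 of 10 base genes and 4 of 8 lid genes. Late against early, 32 members were higher (30.8% of all loci) and 1, RPN14, was lower (25.4% of all loci). RPN10 was the one no longer called (0.19, adjusted p = 0.069). From 10 to 50 min to 60 to 100 min, 29 members rose (20.8% of all loci) and 0 fell (16.8% of all loci), nor did any fall at an unadjusted p under 0.05 by limma. From 60 to 100 min to 110 to 150 min the count was 23 higher (13% of all loci), up from 8, and 0 lower (11.1% of all loci, and 0 members at an unadjusted p under 0.05). In the last step RPN13 was called higher (0.29, adjusted p = 0.0267), where 2.29% of all loci were. None was lower by limma (1.52% of all loci), and RPN14 was lower at an unadjusted p under 0.05. At 20 to 40 min all 32 subunits were below their mean of 160 to 200 min with either set of values. The share of all loci that were below is not given, so this count does not set the subunits apart. The median of that difference was -0.92 as deposited, from -1.58 (PRE6) to -0.35 (RPN13), and -0.85 with the trend removed, from -1.20 (PRE8) to -0.29 (RPN10).

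**Figure D5:**
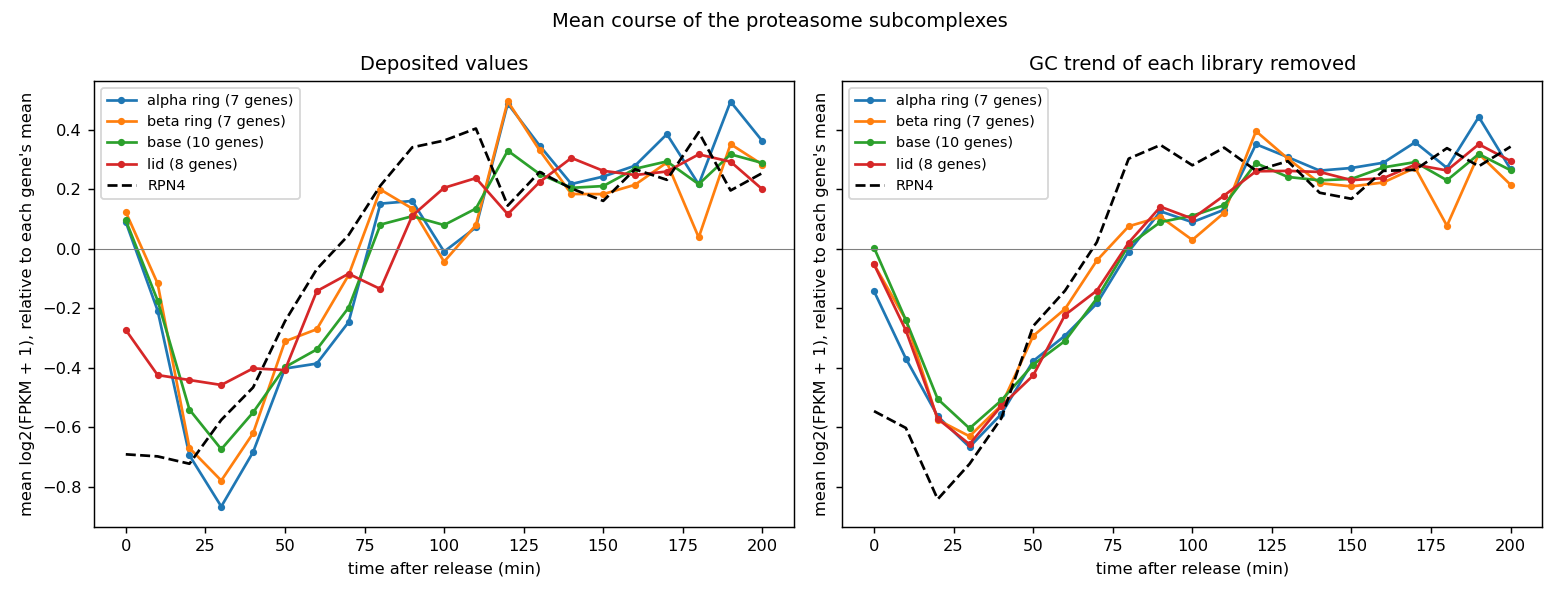
Mean log2(FPKM + 1) of each subcomplex relative to each gene's own mean, against time after release in min, with RPN4 dashed, as deposited (left) and with the GC trend of each library removed (right). On the left the lid reaches -0.46 at 30 min and the alpha ring -0.87; on the right they reach -0.66 and -0.67 and the 4 lines run close together.

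The subunits moved together through the course. Over the 21 libraries, the 496 pairs of subunits had a mean Pearson r of 0.78, from 0.05 to 0.98, and 0.85 with the GC trend removed. These are descriptions, since the libraries share 1 culture and 1 trend in time. The r of each subunit with the mean of the others had a median of 0.93, was highest for RPT5 (0.99) and lowest for RPN13 (0.51). Between lid genes the mean pair r was 0.76 as deposited and 0.90 with the GC trend removed. Between beta ring and lid it was 0.67 and 0.84. RPN10 had the lowest r with the others (0.62) once the trend was removed. RPN14 ran against the subunits (r = -0.33).

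The 27 subunit genes with GGTGGCAAA and the 5 without that exact match were set side by side. Of those 5, PRE5, PUP1 and RPN8 held GTGGCAAA, and RPN10 and RPN13 held GGTGGCGAA, so they are not genes without a similar motif. The medians of 20 to 40 min minus 160 to 200 min were -0.94 for the 27 and -0.91 for the 5 on the log2 scale. The median r with the other subunits was 0.93 and 0.73. Among the 5, PUP1 and PRE5 had an r of 0.93 each, RPN10 of 0.73, RPN8 of 0.69 and RPN13 of 0.51. With the GC trend removed the medians of the difference were -0.89 and -0.75, those of r were 0.96 and 0.87, and RPN8 had an r of 0.95.

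RPN4 RNA was lowest at 20 min and highest at 110 min, whereas the mean of the subunits was lowest at 30 min and highest at 190 min. Some of these extremes were near-ties of single libraries, so their order is uncertain. RPN4 had 124, 124 and 122 FPKM at 0, 10 and 20 min, and 267 FPKM at 110 min beside 265 FPKM at 180 min. The mean of the subunits, in log2 relative to each gene's own mean, was 0.36 at 190 min and 0.35 at 120 min. RPN4 is set beside that mean below. At the same time point the r of RPN4 with the subunit mean was 0.79 over 21 libraries. Over the same 18 subunit libraries of 30 to 200 min, the r was 0.89 with RPN4 at the same time, 0.96 with RPN4 taken 10 min earlier, 0.96 with 20 min and 0.95 with 30 min. With RPN4 held at 30 to 200 min and the subunits taken 10, 20 and 30 min before it, a different set of 18 subunit libraries that brings in those of 20, 10 and 0 min in turn, the r was 0.86, 0.69 and 0.39. The values for the 2 directions are therefore not over the same libraries. With the GC trend removed, the r was 0.93 at the same time, 0.96 with RPN4 taken 10 min earlier, 0.94 with 20 min and 0.90 with 30 min, the last below the same-time value. Both courses rise once, so these are descriptions, and the level of the Rpn4 protein was not measured.

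Other genes of the pathway moved in the same direction in part. Counts are of genes called higher and lower late against early by limma, where 25.9% and 22.7% of all loci were called. Of 6 tested genes for proteins that bind the proteasome, 6 were higher and 0 lower: ECM29, a factor that holds core and cap together, by 1.02, the ubiquitin ligase gene HUL5 by 0.70, CUE5 by 0.67 and SPG5 by 0.58. ECM29 had 14.6 FPKM at 0 min, 15.2 at 30 min and 59.7 at 110 min, its lowest and highest libraries being the first and the last of these. Of 20 genes of the ubiquitin system, 15 were higher and 0 lower, among them UBC5, a ubiquitin-conjugating enzyme (0.86), the shuttle genes DDI1 (0.79) and DSK2 (0.78), and SHP1, a Cdc48 cofactor (0.71). At 0 min, outside both windows, UBC5 had 302 FPKM and at most 285 FPKM late, and CUE5 had 68.9 FPKM and at most 56.6 FPKM late. The other genes named from these lists were not above all their late values at 0 min. Of 11 assembly factor genes, 5 were higher and 0 lower. NAS6, a base chaperone like RPN14, was higher by 0.81, UMP1, which matures the core, by 0.75, SEM1, itself a small lid subunit, by 0.44 and PBA1 by 0.41. SEM1 had 1477 FPKM at 190 min alone and no more than 788 FPKM in any other library. NAS6 was lowest at 30 min (88.3 FPKM) and highest at 200 min (242 FPKM), while RPN14 was highest at 0 min.

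Of 6 genes that act on RPN4 or its protein, 5 were higher and 0 lower, with UBR2, the ligase that marks Rpn4 for destruction, at 0.62, YAP1 at 0.34, PDR1 at 0.25 and PDR3 at 0.20. UBR2 is a gene of low level, from 6.41 FPKM at 0 min to 24.1 FPKM at 110 min. Of 15 chaperone genes under the heat shock factor Hsf1, 5 were higher late, a share not far from the 25.9% of all loci, and 0 were lower (22.7% of all loci). HSP42 (1.04) and HSP78 (0.71) were among the 5. At 0 min HSP42 had 295 FPKM, above all its late values, of which the highest was 165 FPKM. HSP78 had 89.6 FPKM there, below all of its late values. In the earlier step from 10 to 50 min to 60 to 100 min, 14 of the 15 rose and none fell, against 13.6% and 12.8% of all loci, with a median of 0.97: SSA1 by 1.26, SSA4 by 1.20, HSP78 by 1.19 and HSP82 by 1.18. In the step to 110 to 150 min, 0 of the 15 rose and 1 fell, near the 7.06% and 6.88% of all loci.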

How the data were processed

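The authors deposited FPKM per locus for 21 libraries. STAR, Cufflinks, Cuffnorm and genome build R64 are named per the submitters' processing notes, with no versions, and a stranded mRNA kit per the labels' protocols; whether counting used strand is not stated. The lowest deposited value is 1, so 1 was subtracted; that the unit is FPKM was read from the values and tools. Counts and depth are unknown, so no counting interval is given. A table with 50 columns of another series was not used.

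Tests ran on log2(FPKM + 1) with limma 3.58.1 (trend, R 4.3.3) over loci with a mean of at least 1 FPKM: a natural spline of 6 degrees of freedom over 21 libraries, windows of 10 libraries, and blocks of 5. Calls used a Benjamini-Hochberg adjusted p of 0.05 over all loci tested, and for the course a fitted range of at least 1. Fold changes of low genes are understated by the added 1. The limma tests and the GC step were tested on simulated data. Motifs were read from the R64 genome with Biopython 1.88. Alternatives covered the added constant, filter, scaling, spline, single libraries, and GC content and length.

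The members and gene lists were chosen with earlier results of these data known. All members could be named; of each list, up to 4 genes with the largest called effects were.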

Additional observations from a re-analysis of the deposited data

How the results depend on the processing

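The limits are 1 culture, 1 library per time, unknown depth and values relative to all other RNA. Of 448 alternative values, 427 kept their side of the threshold, and their direction where called, or stayed within 1.5 times for counts. The members called over the course were 13 with a spline of 4 degrees of freedom and 34 with no minimum range, and 15 to 22 with 1 library left out. Late against early, members called lower were 0 with libraries scaled to 1 sum (RPN14 at 0.01) and 0 with GC and length trends removed; with 1 library left out 31 to 33 were higher. From 60 to 100 min to 110 to 150 min, 23 members were higher with the GC trend removed, 24 with length as well, and 2 to 14 with 1 library left out. In the last step the counts were 1, 1 and 0 to 1. At least 2-fold lower at 20 to 40 min than at 0 min were 3 members scaled to 1 sum, 4 scaled to 1 median, 4 with 20 min alone, 2 with the GC trend removed and 2 with length as well. Without the 80 and 120 min libraries, 24 members rose from 10 to 50 min to 60 to 100 min. Removing GC or length trends and leaving out 80 and 120 min were chosen after seeing the data. The cause of these changes was not tested. Over single members, 5003 of 5236 alternative values were called, or not called, as in the main fit. A call was lost in 152, gained in 80, and 1 value called in at least 1 of the fits changed sign. Sign changes of values called in neither fit were not counted. RPN4 from 60 to 100 min to 110 to 150 min was such a value, from -0.0066 to 0.10 with 1 library left out. No paired analysis was possible because each time point has 1 library.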

Other observations

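Genes outside the members were ranked by the Pearson r of their log2(FPKM + 1) with the mean course of the 32 subunits over 21 libraries, as a description. Of 6164 genes, UFD1 (0.98) and NPL4 (0.97), the Cdc48 cofactors that help extract ubiquitin-tagged proteins, were among the 20 most alike. DDI1 (0.98), NAS6 (0.97), the ubiquitin-activating enzyme gene UBA1 (0.96) and SHP1 (0.96) were others with a known link to the proteasome. The same 20 held genes of other pathways: ARG7 of arginine synthesis (0.97), ADE2 of purine synthesis (0.97), PHB2, a mitochondrial prohibitin (0.97), and PIM1, the mitochondrial Lon protease (0.97). Of the 20, of which MOS2 had no promoter window here, 3 had GGTGGCAAA in their promoter, PIM1, ALG13 and UBA1. With the GC trend removed, 12 of the 20 were again among the 20 most alike, and UBP6, UFD2 and UMP1 were among those that joined them.

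The genes least alike were NCL1 (-0.97), STH1 (-0.97), TCB2 (-0.97), CDC40 (-0.97) and RLP7 (-0.97). RLP7, a ribosome assembly gene, was at 408 FPKM at 30 min and 182 FPKM at 200 min.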
